A study of Mus musculus with 8 samples.

Results

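Microglia at rest carry a set of surface receptors and secreted proteins, some of which are also made by other cells. The 9 genes described here belong to that set and were taken by symbol from the count table, where all 9 were found among 24924 genes analysed. They are Tmem119, Siglech, Fcrls, Cx3cr1, Csf1r and Selplg, which encode surface proteins, and Olfml3, Sparc and Cst3, which encode secreted ones. RNA came from microglia and from T cells of the brain, sorted on surface markers, of C57BL/6 mice aged 20 to 22 months. Treated mice had received the cytokine interleukin-5 (IL-5) at 2 µg per day for 2 days, and the others phosphate-buffered saline (PBS). The 8 libraries made 4 groups of 2: microglia after IL-5, microglia after PBS, T cells after IL-5 and T cells after PBS. No genetic change is named in the labels, all mice were old, and the markers used for the sort are not given. The labels do not tell whether replicate libraries were made from different mice or from pools, so every p-value below reflects the spread between these samples.

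Resident microglia depend on signals from neurons and on growth factors of the tissue, and they keep a resting state through receptors for both. Csf1r, the receptor for colony stimulating factor 1 and interleukin-34, is needed for their survival, and Cx3cr1 binds fractalkine, a chemokine that neurons present. When microglia respond to damage, many of these resting genes are known to fall together. In the mouse, Siglech signals through the adaptor encoded by Tyrobp, and it is also made by plasmacytoid dendritic cells. Fcrls belongs to the Fc receptor-like family and is widely used as a microglia marker in the mouse.

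The depth was 23536908 to 30423828 gene counts per library. A count of 0 thus allowed at most 3 counts, or 0.0986 to 0.127 counts per 1000000 gene counts (CPM). Such floors, and the counting intervals further below, cover counting error only. The 12 other microglia markers summed to 59660 to 81028 CPM in the microglia libraries and to 206 to 287 CPM in the T cell libraries, and 13 T cell markers summed to 20.2 to 143 CPM in microglia and 3905 to 6315 CPM in T cells. Each sort was therefore richer than the other in the markers of its label, which does not show that it was pure. Markers of choroid plexus and ependyma summed to 35827 to 63828 CPM in microglia. In the T cell libraries they summed to 58419 to 115020 CPM, above the T cell markers. Those of neutrophils reached 13591 to 17645 CPM in microglia. Microglia IL-5 replicate 1 stood apart from the other microglia libraries. Reads outside genes made up 25.5% of its column, against 15.2% to 17.0% in the others, and 13172 genes had a count, against at least 14318. Its scaling factor from the trimmed mean of M-values (TMM) was 0.833, and those of the other 3 microglia libraries were 1.05 to 1.08. Fold changes of the 9 genes, medians of gene lists and the values of the adaptor genes are given below with and without it.

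The 9 genes lie on 7 chromosomes of GRCm38 in the GENCODE M21 annotation, and all are protein coding. Tmem119 (chr5:113793729-113800516) and Selplg (chr5:113818536-113832644) are near neighbours on the minus strand, 18.0 kb apart with 1 annotated gene, Gm19931, between them. Fcrls (chr3:87250758-87263738) and Olfml3 (chr3:103722222-103738001) share a chromosome but lie far apart. Siglech lies at chr7:55768178-55778925, Sparc at chr11:55394500-55423183, Cx3cr1 at chr9:119901616-120069879 and Cst3 at chr2:148871722-148875692. Csf1r shares 873 bp of exon with Hmgxb3 on the opposite strand. Since no strand setting of the counting is given, reads of that stretch could not be assigned to 1 of the pair, and the same holds for 78 bp that Cx3cr1 shares with Gm33858.

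RefSeq promoter windows on GRCm38.p6 were used for 6 of the 9 genes, and Csf1r was left out of the search by choice. Of these windows 4 are shown because they split the IL-5 comparison. Fcrls and Olfml3 were among the genes with lower values in both IL-5 microglia libraries, and Siglech and Cst3 were the pair whose groups overlapped. The windows were searched on both strands for GAGGAA, a core bound by the myeloid factor PU.1, and for AGGAAGT, a consensus of the wider ETS family. The motifs share the letters AGGAA. Each window reads along the strand of its gene, and capitals mark a match or its reverse complement (TTCCTC or ACTTCCT).
Fcrls (chr3:87263475-87263774, minus strand): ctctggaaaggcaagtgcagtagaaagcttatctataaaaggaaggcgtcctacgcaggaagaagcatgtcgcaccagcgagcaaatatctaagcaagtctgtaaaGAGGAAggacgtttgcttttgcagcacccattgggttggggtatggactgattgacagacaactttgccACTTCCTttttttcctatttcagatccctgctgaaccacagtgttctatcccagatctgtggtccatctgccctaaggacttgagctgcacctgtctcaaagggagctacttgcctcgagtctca
Olfml3 (chr3:103737952-103738251, minus strand): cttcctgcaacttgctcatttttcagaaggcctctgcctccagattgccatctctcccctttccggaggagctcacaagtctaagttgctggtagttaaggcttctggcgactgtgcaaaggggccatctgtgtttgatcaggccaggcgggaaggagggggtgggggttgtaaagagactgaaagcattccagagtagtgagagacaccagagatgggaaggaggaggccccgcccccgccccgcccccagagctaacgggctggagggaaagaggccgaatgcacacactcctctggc
Siglech (chr7:55767934-55768233, plus strand): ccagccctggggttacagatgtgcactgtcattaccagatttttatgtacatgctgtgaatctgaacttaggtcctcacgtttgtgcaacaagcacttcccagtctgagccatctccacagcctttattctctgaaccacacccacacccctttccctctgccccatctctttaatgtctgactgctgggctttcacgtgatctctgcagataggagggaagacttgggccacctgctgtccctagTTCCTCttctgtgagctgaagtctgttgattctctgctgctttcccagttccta
Cst3 (chr2:148875463-148875762, minus strand): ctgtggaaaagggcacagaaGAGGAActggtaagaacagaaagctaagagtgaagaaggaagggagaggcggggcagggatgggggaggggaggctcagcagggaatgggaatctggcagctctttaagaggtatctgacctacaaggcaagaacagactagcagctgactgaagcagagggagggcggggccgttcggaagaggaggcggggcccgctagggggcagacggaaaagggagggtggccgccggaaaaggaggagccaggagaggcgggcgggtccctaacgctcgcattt

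GAGGAA occurred in 3 of the 6 windows, those of Fcrls, Siglech and Cst3, and in 28.3% of all 32851 promoter windows of the table. It began 144 bases before the RefSeq start of the window in Fcrls and 230 bases before it in Cst3. In Siglech it began 4 bases before that start, on the reverse strand. These starts lay 214 bases inside the GENCODE gene for Fcrls, 180 for Cst3 and 6 for Siglech. The matches of Fcrls and Siglech thus began within the GENCODE gene. For Cx3cr1 and Sparc the RefSeq starts lay 1583 and 3103 bases inside it. AGGAAGT occurred in 1 of the 6, that of Fcrls, and in 9.35% of all windows. The windows of Olfml3, Cx3cr1 and Sparc held neither. The letters did not separate Fcrls and Olfml3 from Siglech and Cst3, and a match is a description of the sequence, not a bound site.

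Levels of different genes were compared as counts per kilobase of exon, scaled to 1000000 in each library. In this unit Cst3, which encodes the cathepsin inhibitor cystatin C, was far above the rest, with 77793 in IL-5 microglia (libraries 73483 and 82103) and 92995 in PBS microglia (95747 and 90243). By plain CPM it was the most abundant gene of all in 3 of the 4 microglia libraries and ranked 2 in Microglia IL-5 replicate 2. Tmem119, a surface protein used to tell microglia from incoming macrophages, came next with a per-length level of 1784 in IL-5 microglia and 3986 in PBS microglia. Selplg, the selectin ligand PSGL-1, followed with 596 in IL-5 microglia and 1473 in PBS microglia.

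The lower ranks were close together. In PBS microglia the per-length order went on with Sparc (958), Fcrls (663), Siglech (618), Cx3cr1 (579), Olfml3 (560) and Csf1r (539), and the libraries of each neighbouring pair from Siglech onward overlapped. In IL-5 microglia every neighbouring pair from Selplg downward overlapped, so that only Cst3 and Tmem119 held ranks beyond the spread of the libraries. In T cells of both treatments the order was Cst3, Selplg and Sparc with no overlap between neighbours, and the other 6 genes averaged 7.08 or less in this unit. These orders rest on the union of exons as the length. By mean transcript length PBS microglia gave Tmem119 3912, Selplg 3427, Sparc 1544, Csf1r 833, Siglech 710, Olfml3 699, Fcrls 571 and Cx3cr1 375. Csf1r then moved from last to just below Sparc, and Tmem119 and Selplg came closer together.

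**Figure D1:**
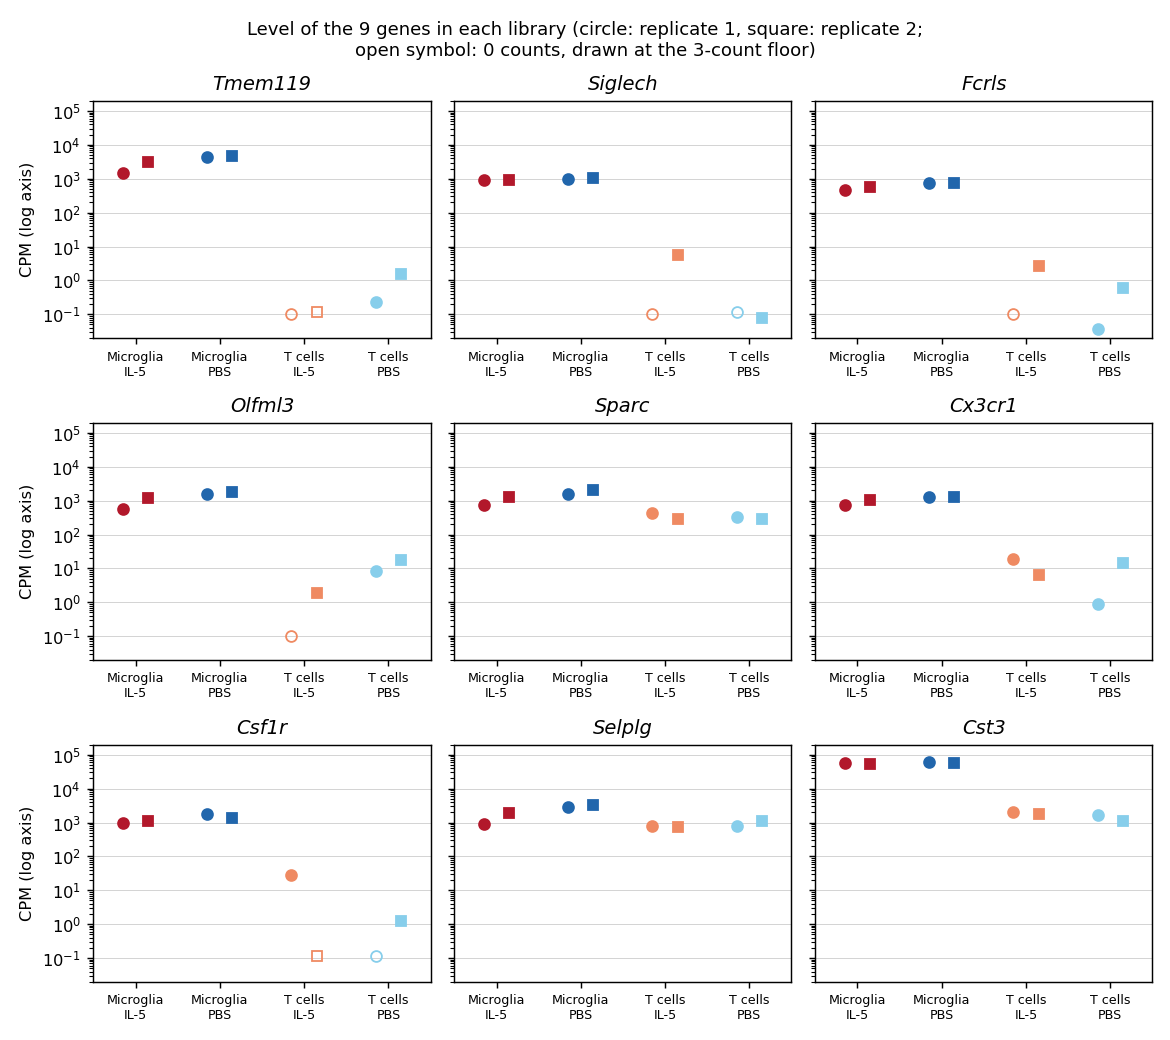
Counts per 1000000 gene counts (CPM, log axis) of each of the 9 genes in the 8 libraries, IL-5 left of PBS within each cell type, with circles for replicate 1 and squares for replicate 2. Open symbols are libraries with 0 counts, drawn at the floor of 3 counts; Sparc, Selplg and Cst3 stay well above the floor in T cells, and Tmem119 is at 0 in both IL-5 T cell libraries.

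The effect of IL-5 on the resting microglia genes was the first comparison. Of the 9 genes, 7 had lower values in both IL-5 microglia libraries than in either PBS library on TMM-scaled CPM, but none passed the test (edgeR's quasi-likelihood test with Benjamini-Hochberg adjustment, threshold 0.05). Over all 13764 genes tested, 51% were below 0, 0% were called in either direction, 21.1% had no overlap in the lower direction and 17.4% in the higher one. The median log2 fold change, IL-5 over PBS, was -0.42 for the 9 genes and -0.023 for all genes tested. At an unadjusted p under 0.05 edgeR gave 0 of the 9 genes, 246 higher genes (1.79%) and 371 lower genes (2.7%). DESeq2 called 39 genes higher (0.289%) and 80 lower (0.592%) of 13515, and 0 of the 9. In bulk samples such as these, fewer cells of a type and less RNA per cell cannot be told apart.

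Selplg and its neighbour Tmem119 had the lowest ratios. Selplg measured 905 and 1862 CPM in IL-5 microglia and 2874 and 3360 CPM in PBS microglia. Tmem119 measured 1444 and 3039 CPM in IL-5 microglia and 4320 and 4824 CPM in PBS microglia, or 2241 ± 1128 and 4572 ± 357 CPM (SD, n = 2 each). Neither gene overlapped between treatments, and in both the 2 IL-5 libraries differed from each other by more than the 2 PBS libraries did. The log2 fold change was -1.07 for Selplg (SE 0.45, edgeR adjusted p = 0.964) and -0.93 for Tmem119 (SE 0.46, edgeR adjusted p = 0.964). The ratio of Selplg to Tmem119 counts, which no scaling touches, was 0.627 and 0.613 in IL-5 microglia and 0.665 and 0.696 in PBS microglia, so the neighbours kept nearly the same proportion in all 4 libraries.

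The secreted proteins Olfml3 and Sparc showed the same order of libraries. Olfml3, an olfactomedin-like glycoprotein of the extracellular space, measured 571 and 1170 CPM in IL-5 microglia and 1591 and 1827 CPM in PBS microglia (log2 fold change -0.87, SE 0.44, edgeR adjusted p = 0.964). Sparc, a matricellular protein that binds collagen, measured 743 and 1310 CPM in IL-5 microglia and 1567 and 2025 CPM in PBS microglia (-0.69, SE 0.43, edgeR adjusted p = 0.974). In both genes replicate 1 was the lower of the IL-5 libraries, and no IL-5 library reached a PBS library. Markers of endothelium and pericytes, cells that also make Sparc, summed to 563 and 732 CPM in IL-5 microglia and 708 and 962 CPM in PBS microglia, with all 10 detected in every library; their part in the Sparc values was not tested.

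The receptor genes Csf1r, Fcrls and Cx3cr1 differed less. Csf1r measured 955 and 1124 CPM in IL-5 microglia and 1771 and 1322 CPM in PBS microglia (log2 fold change -0.42, SE 0.42, edgeR adjusted p = 0.984). Fcrls measured 455 and 587 CPM in IL-5 microglia and 773 and 762 CPM in PBS microglia (-0.42, SE 0.38, edgeR adjusted p = 0.984). Cx3cr1 measured 721 and 1077 CPM in IL-5 microglia and 1261 and 1324 CPM in PBS microglia (-0.39, SE 0.40, edgeR adjusted p = 0.984). For these 3 genes the TMM-scaled IL-5 libraries lay between 70.7% and 81.6% of the PBS mean, and the difference was close to its standard error.

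Siglech and Cst3 did not separate the treatments on TMM-scaled CPM. Siglech measured 942 and 931 CPM in IL-5 microglia and 1005 and 1068 CPM in PBS microglia (log2 fold change 0.022, SE 0.40, edgeR adjusted p = 0.999). Cst3 measured 57993 and 53149 CPM in IL-5 microglia and 60888 and 55931 CPM in PBS microglia (0.10, SE 0.50, edgeR adjusted p = 0.998). The sign of both depended on the scaling: by library size only, which moved the median of all genes by -0.13, Siglech was at -0.15 and Cst3 at -0.072. Without Microglia IL-5 replicate 1 they were at -0.18 and -0.16, and without Microglia PBS replicate 1 Siglech was at -0.028. On plain CPM Siglech had no overlap either, which made 8 of 9 genes lower in that sense, against 23.1% of all genes tested. Markers of choroid plexus and ependyma, which also make Cst3, summed to 59937 and 63828 CPM in IL-5 microglia and 43131 and 35827 CPM in PBS microglia, with all 11 detected in every library, and their part in the Cst3 values was not tested.

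**Figure D2:**
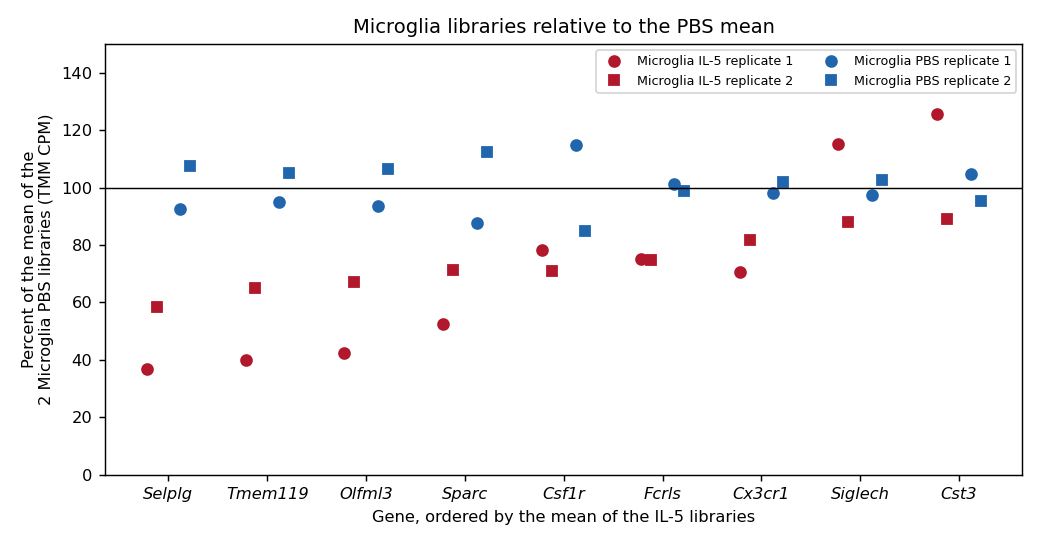
TMM-scaled CPM of each gene in the 4 microglia libraries as a percent of the mean of the 2 PBS libraries, with IL-5 libraries (red) left of PBS libraries (blue) for each gene. In the IL-5 libraries Selplg is at 36.8% and 58.5% and Fcrls at 75.1% and 74.9%, and Siglech and Cst3 lie on both sides of 100%.

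Expressed against the PBS mean, the IL-5 libraries reached 40.0% and 65.1% for Tmem119, 42.3% and 67.0% for Olfml3, and 52.5% and 71.4% for Sparc. Over the 9 genes the median was 70.7% in Microglia IL-5 replicate 1 (36.8% to 126%) and 71.4% in replicate 2 (58.5% to 89.0%). The same medians for the 12 other microglia markers were 111% (39.1% to 334%) and 86.9% (74.2% to 102%). Replicate 1 thus spread the genes far more widely than replicate 2, for the 9 genes and for the markers.

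The library that stood apart set part of the size of these differences, and the standard errors were smaller with either IL-5 library left out. Without Microglia IL-5 replicate 1 the log2 fold changes were -0.76 for Selplg (SE 0.18), -0.61 for Tmem119 (SE 0.17), -0.57 for Olfml3 (SE 0.19) and -0.48 for Sparc (SE 0.21). Csf1r was at -0.48, Fcrls at -0.41 and Cx3cr1 at -0.28 there. Without Microglia IL-5 replicate 2 they were -1.44 for Selplg (SE 0.19), -1.32 for Tmem119 (SE 0.18) and -1.24 for Olfml3 (SE 0.20). In that fit the IL-5 group was replicate 1 alone, and its spread was taken to be that of the PBS libraries. The 7 genes below 0 stayed below 0 in every alternative run, including the scaling of libraries to the 12 other microglia markers, which moved the median of all genes by 0.10.

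Markers of glia also lay mostly below 0. Markers of oligodendrocytes summed to 228 and 493 CPM in IL-5 microglia and 689 and 843 CPM in PBS microglia. Of these 8 markers 7 were below 0 and 6 had no overlap lower (median log2 fold change -1.26, and -0.67 without Microglia IL-5 replicate 1), and 1 was at 0 in replicate 1 and none in the other microglia libraries. Those of astrocytes summed to 397 and 358 CPM in IL-5 microglia and 552 and 494 CPM in PBS microglia. All 10 were detected in each microglia library, 7 were below 0 and 3 had no overlap lower (median -0.80, and -0.71 without replicate 1). Over all genes tested 21.1% had no overlap lower. None of these markers was called by edgeR, and their part in the values of the 9 genes was not tested.

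**Figure D3:**
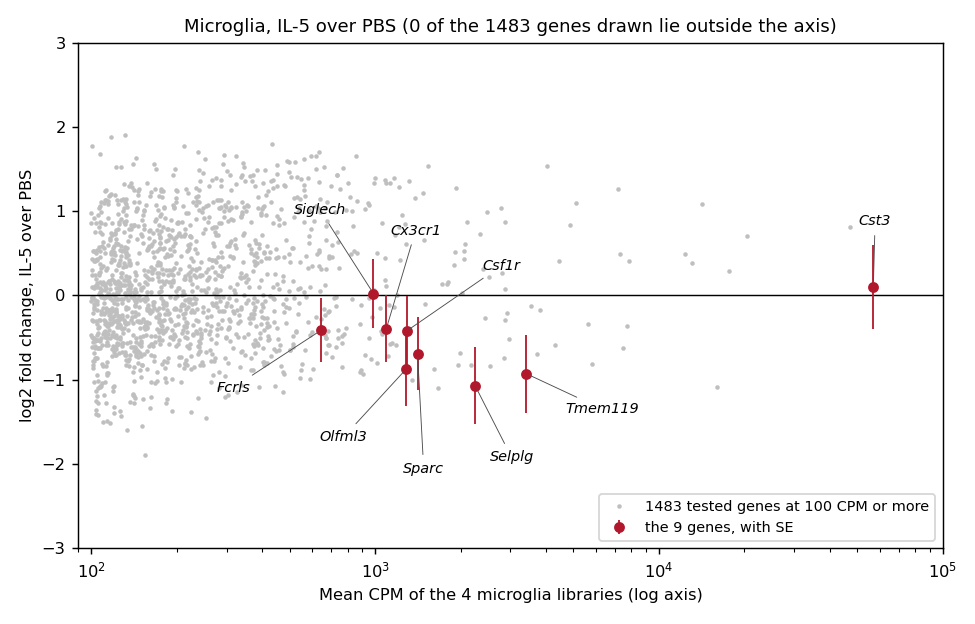
The log2 fold change of IL-5 over PBS in microglia against the mean CPM of the 4 microglia libraries (log axis), for 1483 tested genes with a mean of at least 100 CPM (grey) and for the 9 genes (red, bars are the standard error). Of the grey genes and the 9 together 47.5% were below 0, with a median of 0.05, and 7 of the 9 genes lie below 0. The error bar of Cx3cr1 reaches 0, and those of the other 6 end below it.

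The sum of the 9 genes was dominated by Cst3 and differed little between treatments. It was 64729 and 64249 CPM in IL-5 microglia and 76049 and 72441 CPM in PBS microglia, a ratio of mean sums of 0.869 that became 0.976 on TMM-scaled CPM. Without Cst3 the other 8 genes summed to 6736 and 11100 CPM in IL-5 microglia and 15161 and 16510 CPM in PBS microglia. Cst3 accordingly took 89.6% and 82.7% of the sum in IL-5 microglia and 80.1% and 77.2% in PBS microglia.

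Ratios within a library, which do not depend on its scaling, also differed between treatments. Tmem119 counts were 2.49% and 5.72% of Cst3 counts in IL-5 microglia and 7.09% and 8.63% in PBS microglia. Siglech counts were 65.2% and 30.6% of Tmem119 counts in IL-5 microglia and 23.3% and 22.1% in PBS microglia. Siglech took 13.98% and 8.39% of the 8-gene sum in IL-5 microglia and 6.63% and 6.47% in PBS microglia, and Tmem119 took 21.4% and 27.4% in IL-5 microglia and 28.5% and 29.2% in PBS microglia. In each of these ratios the IL-5 and PBS libraries did not overlap, and replicate 1 was the farther of the IL-5 libraries from the PBS pair. A ratio shows unequal change and not which of its members differed.

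Genes that work with these proteins were described in the same fit, and none of their lists held a called gene. For this list and those that follow, the share over all genes tested was 51% below 0. No overlap was found for 21.1% in the lower direction and 17.4% in the higher one. Of 35 other homeostatic microglia genes 23 were below 0 and 16 had no overlap in the lower direction (median log2 fold change -0.30). Bin1, a membrane-bending protein, measured 184 and 301 CPM in IL-5 microglia and 468 and 504 CPM in PBS microglia (-0.88, SE 0.38, edgeR adjusted p = 0.964). Gas6, a ligand of the TAM receptors, measured 83.9 and 106 CPM in IL-5 microglia and 169 and 186 CPM in PBS microglia (-0.76, SE 0.37, edgeR adjusted p = 0.964). Both genes had no overlap between treatments in microglia. On plain CPM Gas6 was higher in T cells, with 379 and 290 CPM after IL-5 and 219 and 198 CPM after PBS. Of the 35 genes, 33 in IL-5 mice and 34 in PBS mice were above 0 for microglia over T cells. With Microglia IL-5 replicate 1 left out, the list had 32 of 35 genes below 0 (median -0.23), with Bin1 at -0.71 and Gas6 at -0.77.

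Signalling partners of the receptors were mixed. Of 22 genes of Csf1r signalling 11 were below 0 (median -0.07), with 9 having no overlap lower and 6 higher. The kinase gene Akt1 measured 57.7 and 105 CPM in IL-5 microglia and 193 and 209 CPM in PBS microglia (-1.19, SE 0.39, edgeR adjusted p = 0.964). Of 13 genes of the Cx3cr1 pathway 6 were below 0 (median 0.09). Its G protein subunits lay on opposite sides of 0, with Gnai2 at -0.91 (SE 0.52) and Gnai3 at 0.81 (SE 0.48), both with an edgeR adjusted p of at least 0.971. In the fit that left out Microglia IL-5 replicate 1, the Csf1r list had 16 of 22 genes below 0 (median -0.34) and the Cx3cr1 list a median of 0.036, and Akt1 was at -0.96, Gnai2 at -0.43 and Gnai3 at 0.29.

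The lists tied to Selplg and Cst3 had lower medians. Of 14 genes for ligands and glycans of PSGL-1 10 were below 0 and 8 had no overlap lower (median -0.72), among them Galnt1, a starter enzyme of O-glycans (-1.51, SE 0.48, edgeR adjusted p = 0.964). Of 12 tested genes for cystatins and the proteases that cystatin C inhibits 10 were below 0 and 8 had no overlap lower (median -0.54). Cst7, which encodes cystatin F, measured 56.9 and 107 CPM in IL-5 microglia and 188 and 211 CPM in PBS microglia (-1.18, SE 0.40, edgeR adjusted p = 0.964), and the cathepsin gene Ctsf 79.6 and 194 CPM in IL-5 microglia and 326 and 348 CPM in PBS microglia (-1.22, SE 0.45, edgeR adjusted p = 0.964). Of 13 tested matrix genes linked to Sparc 7 were below 0 (median -0.11). The pair with the smallest p there, Spock1 and Col1a1, stayed below 10 CPM in every library. The medians of these lists without Microglia IL-5 replicate 1 were -0.55 for PSGL-1, -0.22 for the cystatins and proteases and -0.21 for the matrix genes, and Galnt1 was at -1.90, Cst7 at -0.93 and Ctsf at -0.82.

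The adaptors of Siglech and of the Fc receptors lay above 0, unlike most of their lists. Of 10 tested genes of the Siglec family and its adaptors 7 were below 0 and 6 had no overlap lower (median -0.70), including the phosphatase gene Ptpn6 (-0.76, SE 0.41, edgeR adjusted p = 0.964). Tyrobp, the adaptor gene that Siglech signals through, measured 14658 and 4529 CPM in IL-5 microglia and 5107 and 4482 CPM in PBS microglia (1.26, SE 0.71, edgeR adjusted p = 0.971). Of 8 tested Fc receptor and Fc receptor-like genes 5 were below 0 (median -0.21), while Fcer1g, the shared gamma chain, measured 9525 and 3631 CPM in IL-5 microglia and 3850 and 3444 CPM in PBS microglia (1.1, SE 0.65, edgeR adjusted p = 0.974). For both adaptors the high value was that of Microglia IL-5 replicate 1, and replicate 2 lay within the PBS values. Without replicate 1 the log2 fold change was -0.11 for Tyrobp (SE 0.17) and -0.030 for Fcer1g (SE 0.17), and the medians were -0.30 for the Siglec list, with 9 of 10 genes below 0, and -0.036 for the Fc receptor list, with 6 of 8.

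Genes that microglia are known to raise in damaged tissue lay mostly below 0. Of 27 disease-associated microglia genes 20 were below 0 and 16 had no overlap lower (median -0.58). Axl, a TAM receptor kinase, measured 11.8 and 21.9 CPM in IL-5 microglia and 87.1 and 83.4 CPM in PBS microglia (-2.23, SE 0.48, edgeR adjusted p = 0.964). Its groups were far apart in these libraries, yet its adjusted p missed the threshold. This list had 21 of 27 genes below 0 (median -0.23) without Microglia IL-5 replicate 1, and Axl was at -1.98.

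The comparison of microglia with T cells described the gap of each gene between these sorts. The 9 genes were listed as microglia genes, so higher values in microglia followed from that choice. The calls below are therefore no separate support for it. Tmem119 and Siglech passed the filter on low counts through the microglia libraries. In PBS mice all 9 genes were called higher in microglia, and in IL-5 mice 8 of 9 were, the exception being Csf1r. Over all 15397 genes tested edgeR called 5.73% higher and 2.49% lower in IL-5 mice, and 4.6% higher and 2.57% lower in PBS mice. The median log2 fold change of the 9 genes, microglia over T cells, was 7.02 in IL-5 mice and 8.09 in PBS mice, against -0.19 in IL-5 mice and -0.06 in PBS mice for all genes. The median in IL-5 mice is the value of Csf1r, with Tmem119 above it also at its lower bound. By library size only the median of all genes moved by -0.82 in IL-5 mice and -0.70 in PBS mice. The calls then turned to 336 higher and 958 lower genes in IL-5 mice, against 883 and 383 with TMM, and to 376 higher and 919 lower in PBS mice, against 709 and 396.

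Tmem119 was nearly absent from the T cell libraries. It had 0 counts in both IL-5 T cell libraries, and 6 and 39 counts, or 0.227 and 1.52 CPM, in PBS T cells. Its mean in IL-5 microglia was at least 21006-fold that in IL-5 T cells, with T cells set to the floor of 3 counts per library (edgeR adjusted p = 0.000463). In PBS mice the log2 fold change was 13.04 (SE 1.05, edgeR adjusted p = 0.000544). On plain CPM, PBS T cells held 0.0191% of the microglial level.

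Siglech, Fcrls and Olfml3 were traces of uneven size. Siglech had 0 and 150 counts in IL-5 T cells and 0 and 2 in PBS T cells. Over PBS mice the pooled microglial level was 26970 times that of T cells, with a counting interval at 95% of 7466 to 222702 (edgeR adjusted p = 0.0105). Fcrls had 0 and 73 counts in IL-5 T cells and 1 and 15 in PBS T cells. Both genes were at 0 in T cells IL-5 replicate 1, and replicate 2 held far more of them than any other T cell library. Olfml3 had 0 and 49 counts in IL-5 T cells and 224 and 463 counts in PBS T cells, and its log2 fold change, microglia over T cells, was 10.70 in IL-5 mice (SE 1.63, edgeR adjusted p = 0.00893) and 7.71 in PBS mice (SE 1.43, edgeR adjusted p = 0.0198). Markers of plasmacytoid dendritic cells, which also make Siglech, summed to 617 and 543 CPM in IL-5 T cells and 437 and 538 CPM in PBS T cells, with 2 and 0 of the 9 markers at 0 after IL-5 and 2 and 3 after PBS. Among these markers the library with 150 Siglech counts held 68 Klk1 and 17 Cox6a2 counts, and both genes were at 0 in the other 3 T cell libraries. Ly6d and Spib were also highest in that library, while Bst2, Tcf4, Irf7, Ccr9 and Pacsin1 were each higher in another T cell library. Cox6a2 was also present in the microglia libraries, at 33.2 to 76.3 CPM. The part of plasmacytoid dendritic cells in the Siglech counts was not tested.

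Cx3cr1 and Csf1r, which are also made by blood leukocytes, varied widely between T cell libraries. Cx3cr1 had 18.6 and 6.21 CPM in IL-5 T cells and 0.909 and 14.4 CPM in PBS T cells, or 1.38% of the microglial mean in IL-5 mice and 0.593% in PBS mice. Csf1r had 835 and 0 counts in IL-5 T cells and 0 and 32 in PBS T cells. In IL-5 mice its log2 fold change, microglia over T cells, was 7.02 (SE 2.31, edgeR adjusted p = 0.117), and in PBS mice 11.97 (SE 2.84, edgeR adjusted p = 0.0457). In T cells IL-5 replicate 1, the library with 835 Csf1r counts, 7 of 12 microglia markers were at 0, among them P2ry12, Trem2 and C1qb, while Gpr34 had 1341 counts. Of 10 markers of border macrophages 8 were at 0 there, among them Mrc1 and Pf4, while Cbr2 had 1169. The part of either cell type in the Csf1r counts was not tested.

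Selplg, Sparc and Cst3 were plainly present in the T cell libraries. Selplg, which lymphocytes also use to bind selectins, measured 771 and 736 CPM in IL-5 T cells and 776 and 1098 CPM in PBS T cells. That was 54.5% of the microglial mean in IL-5 mice and 30.1% in PBS mice, and the log2 fold change, microglia over T cells, was 1.66 in IL-5 mice (SE 0.36, edgeR adjusted p = 0.0251) and 2.43 in PBS mice (SE 0.37, edgeR adjusted p = 0.00539). Sparc stood at 35.3% of the microglial mean in IL-5 mice and 17.4% in PBS mice, and Cst3 at 3.43% in IL-5 mice and 2.43% in PBS mice. The 12 other microglia markers together reached only 0.293% to 0.424% of their microglial sum in the 4 T cell libraries, below each of these 3 genes. The log2 fold change, microglia over T cells, was 2.30 (SE 0.37, edgeR adjusted p = 0.00769) in IL-5 mice and 3.22 (SE 0.38, edgeR adjusted p = 0.0017) in PBS mice for Sparc, and 5.72 in IL-5 mice (SE 0.43, edgeR adjusted p = 0.000356) and 6.06 in PBS mice (SE 0.44, edgeR adjusted p = 0.000236) for Cst3.

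**Figure D4:**
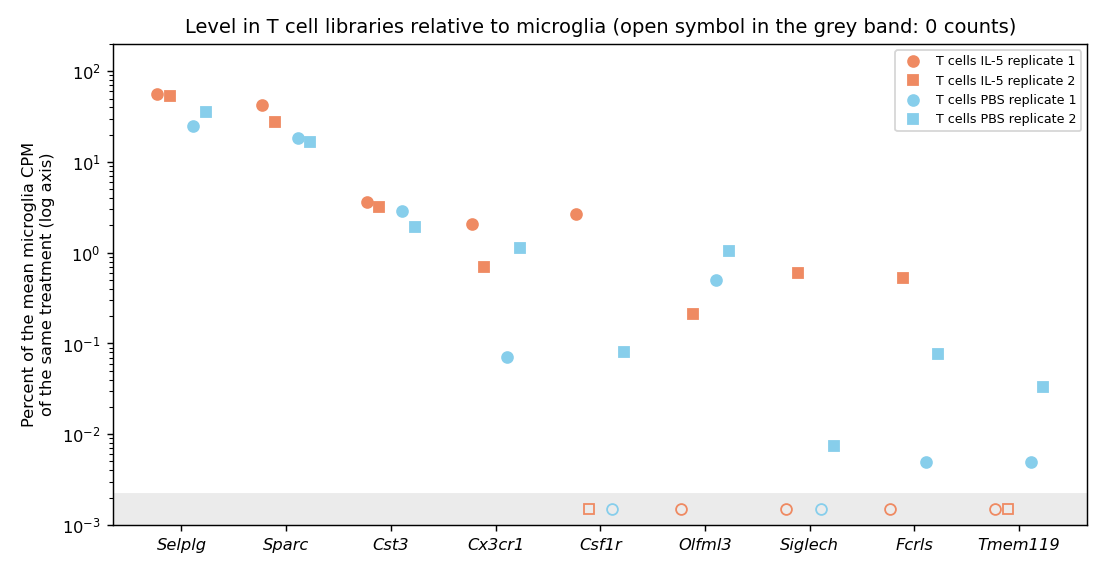
CPM of each gene in each T cell library as a percent of the mean microglia CPM of the same treatment (log axis), with IL-5 libraries (orange) left of PBS libraries (light blue) and 0 counts drawn as open symbols in the grey band. Selplg and Sparc are at 16.5% or more in all 4 libraries and Cst3 at 1.94% or more, while Tmem119, Fcrls, Siglech, Olfml3 and Csf1r each have at least 1 library at 0.

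Only Tmem119 and Cst3 were called in both treatments under every alternative run. With no filter on low counts, and when any 1 microglia library was left out, Siglech, Fcrls, Olfml3 and Cx3cr1 were no longer called in IL-5 mice, and these 4 and Csf1r were no longer called in PBS mice. Without T cells PBS replicate 1 or replicate 2, Siglech, Fcrls, Olfml3 and Csf1r lost their calls in PBS mice, and Siglech and Fcrls in IL-5 mice. Selplg lost its call in PBS mice without T cells PBS replicate 1. In IL-5 mice Selplg and Cx3cr1 lost theirs without either T cell IL-5 library, and Sparc without replicate 2, while Csf1r was called without replicate 1. Scaling by library size only removed the call of Selplg in IL-5 mice.

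The effect of IL-5 on the 9 genes in T cells could be fitted for 7 of them, since Tmem119 and Siglech did not pass the filter on low counts. None was called, and edgeR called 0% of 13897 genes in either direction (at an unadjusted p under 0.05, 2.55% higher and 1.76% lower, with 0 of the 9 genes). DESeq2 called 184 genes higher (1.34%) and 55 lower (0.402%), and none of the 7 of the 9 genes to which it gave an adjusted p. A fold change is given for the 4 genes with counts in all T cell libraries. Cst3 measured 2018 and 1788 CPM in IL-5 T cells and 1703 and 1136 CPM in PBS T cells (log2 fold change, IL-5 over PBS, 0.47, SE 0.23, edgeR adjusted p = 1.00), with no overlap between treatments.

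The other 3 overlapped on TMM-scaled CPM. Sparc measured 439 and 286 CPM in IL-5 T cells and 329 and 296 CPM in PBS T cells (0.26, SE 0.26), Selplg was at -0.26 (SE 0.20) and Cx3cr1 at 0.76 (SE 1.74), all with an edgeR adjusted p of 1.00. The sign of Sparc turned to -0.10 without T cells IL-5 replicate 1, and that of Cx3cr1 to -0.26 without the same library and -0.15 without T cells PBS replicate 1. Tmem119, at 0 in IL-5 T cells, was at least 8.17-fold lower there than in PBS T cells, where it averaged 0.871 CPM. That bound rests on T cells PBS replicate 2, since against replicate 1 alone it was 2.13-fold. The median trace of the 12 other microglia markers was also highest in T cells PBS replicate 2, at 0.096% of the microglial level. It was 0.0073% in PBS replicate 1, and 0% and 0.011% in the IL-5 T cell libraries. The part of microglial RNA in the Tmem119 counts was not tested. Leaving out T cells PBS replicate 1 moved Cst3 to 0.80 and Selplg to -0.48, and leaving out replicate 2 of that group moved them to 0.20 and -0.0073. Of the 9 genes 1 had no overlap in the higher direction, Cst3, and 2 in the lower one, Tmem119 and Olfml3, against 18.1% and 17.3% of all genes tested.

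Markers of other cells moved beside these values. In T cells, choroid plexus and ependyma markers summed to 111829 and 115020 CPM after IL-5 and 83104 and 58419 CPM after PBS, with all 11 detected in every library, in the same direction as Cst3. Endothelium and pericyte markers, 10 of 10 detected, summed to 1805 and 896 CPM after IL-5 and 1169 and 1686 CPM after PBS, and T cells IL-5 replicate 1 was highest both in that sum and in Sparc. Markers of CD8 and cytotoxic lymphocytes, 11 of 11 detected, summed to 4993 and 5668 CPM after IL-5 and 6505 and 8793 CPM after PBS, and T cells PBS replicate 2 was highest both in that sum and in Selplg. The part of these cells in the results was not tested.

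The difference between the IL-5 responses of the 2 cell types was tested directly, as the response in microglia minus that in T cells. For the 4 genes with counts in every library it was -0.92 for Sparc (SE 0.50), -0.77 for Selplg (SE 0.50), -0.34 for Cst3 (SE 0.50) and -1.11 for Cx3cr1 (SE 1.40), with edgeR adjusted p-values of 0.904 to 1.00. With 1 library left out at a time the difference ran from -1.23 to -0.55 for Sparc, both ends without an IL-5 T cell library, and from -1.12 to -0.49 for Selplg, both ends without an IL-5 microglia library. It ran from -0.66 to -0.081 for Cst3, and from -4.20 without T cells PBS replicate 2 to -0.071 without T cells IL-5 replicate 1 for Cx3cr1. None of the 9 genes and 0% of 15397 genes were called by edgeR in either direction (at an unadjusted p under 0.05, 1.96% higher and 3.22% lower, 2 of the 9 genes among them). Those 2 were Tmem119, with 0 counts in IL-5 T cells and 6 and 39 in PBS T cells, and Siglech, with 0 and 150 counts in IL-5 T cells and 0 and 2 in PBS T cells. Both failed the filter on low counts in the T cell fit and passed it here through the microglia libraries. Their differences rest on these few T cell counts, so no call of either gene shows a difference of responses. DESeq2 called 74 genes higher (0.493%) and 174 lower (1.16%), and among the 9 only Tmem119 (adjusted p = 0.0358). The Tmem119 difference was above 0 in both DESeq2 and edgeR, opposite to the 4 genes above. Its size is not defined, since IL-5 T cells had 0 counts. In microglia alone Tmem119 was at -0.93 for IL-5 over PBS. Without T cells IL-5 replicate 1 edgeR called 6 genes in all, and Siglech was 1 of them. Without Microglia IL-5 replicate 2 it called 232 genes and none of the 9.

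The genes most like the 9 in their profile were sought by Pearson's r over the 8 libraries, between each gene's log2 TMM-scaled CPM and the mean of that value over the 9 genes. Among 2793 other genes with at least 50 CPM on average in microglia, the closest were Il1b, Fcgr1, Nfam1, P2ry13 and Lrrc3, each with r = 0.998. The 8 libraries share 2 cell types, so r mostly reflects the gap between microglia and T cells. All 5 were at 0 in both IL-5 T cell libraries and in T cells PBS replicate 1, and at 0.194 CPM or less in T cells PBS replicate 2. In microglia P2ry13, a nucleotide receptor, measured 393 and 773 CPM after IL-5 and 882 and 901 CPM after PBS (-0.51 on the log2 scale, SE 0.42, edgeR adjusted p = 0.984). Il1b, the cytokine interleukin-1 beta, measured 62.9 and 96.1 CPM after IL-5 and 119 and 128 CPM after PBS (-0.51, SE 0.38, edgeR adjusted p = 0.984). Both had the order of libraries that Tmem119 and Olfml3 had, with IL-5 replicate 1 lowest.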

How the data were processed

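The authors deposited 1 table of raw read counts per gene with 24953 entries and 1 column per library. Per the submitters' processing notes the tools were STAR 2.5.3a, DESeq2 1.1, Cufflinks 2.0, FastQC 1.0.0 and bcl2fastq 2.20.0.422, and the builds mm10 and GRCm38; the counting tool and its strand setting are not given in the sources used here. Kept out of tests and library sizes were 2 summary entries (reads outside genes and ambiguous reads, 15.2% to 25.5% and 1.39% to 1.77% of a column) and 27 genes with 53 cells that were not numbers. Of the 24924 genes left, 24390 (97.9%) matched GENCODE M21 by symbol.

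Counts were tested with edgeR 4.0.16 in R 4.3.3 (quasi-likelihood test, TMM scaling, filterByExpr with a minimum count of 10, robust dispersion, two-sided, Benjamini-Hochberg adjustment over all genes tested, threshold 0.05). Each IL-5 comparison used the 4 libraries of its cell type, and the other contrasts used 1 fit of all 8. The SE is the size of the log2 fold change over the square root of F. DESeq2 1.42.0 was an alternative. Per-length levels use the union of exons. Groups of 2 allow 6 assignments, so an exact two-sided permutation test could not go below 0.333 and was not used. The pipeline was tested on simulated data.

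The 9 genes and all lists were chosen with earlier results of these data known. Named were all 9 genes, the 2 genes of each pathway list with the smallest p in the microglia IL-5 comparison, and the 5 most alike, except for some that are not reported here; markers of other cells that are named stand beside a result they move with and were picked after their values were seen. The scaling to the 12 microglia markers was chosen after the data were seen. Figures were drawn with matplotlib 3.10.9.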

Additional observations from a re-analysis of the deposited data

How the results depend on the processing

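DESeq2 called 119 genes in microglia and 239 in T cells for IL-5 over PBS, 3135 and 3060 for microglia over T cells in IL-5 and in PBS mice, and 248 for the difference of responses. With no filter edgeR called 2 genes in T cells, 1722 for microglia over T cells in PBS mice and 31 for the difference of responses, and with all 8 libraries in 1 fit 2 in T cells. Leaving out 1 library at a time, counts ran from 0 to 1255 in microglia, 0 to 1 in T cells, 385 to 2209 and 508 to 2028 for microglia over T cells in IL-5 and in PBS mice, and 0 to 232 for the difference of responses. The highest counts came without Microglia IL-5 replicate 2, except in T cells, where the 1 gene came without T cells PBS replicate 2. The lowest counts for microglia over T cells came without T cells IL-5 replicate 1 in IL-5 mice and without Microglia PBS replicate 1 in PBS mice. The median of the 9 genes in microglia, -0.42, ran from -0.50 to -0.43 with a library left out and was -0.57 by library size only and -0.32 when scaled to the 12 other microglia markers. The ratio of the sums of the 9 genes moved to 0.976 on TMM-scaled CPM. The cause of these differences was not tested.

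In microglia the sign of Siglech turned by library size only (-0.15) and without a library (-0.18 to 0.20), and that of Cst3 likewise (by library size -0.072, and without a library -0.16 to 0.33). In T cells the sign turned when a library was left out for Cx3cr1 (-0.26 to 3.80) and Sparc (-0.10 to 0.54). Deviations of IL-5 and PBS libraries with the same replicate number correlated at 0.0124 in microglia and 0.0153 in T cells. The number was therefore not taken as a pairing within a cell type. Microglia and T cell libraries of the same number were not compared in this way. With the replicate block edgeR called 0 genes for IL-5 over PBS in either cell type and 975 and 933 genes for microglia over T cells in IL-5 and in PBS mice, where Csf1r lost its call. Each group held 2 libraries, which limits the precision of every test here.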

Other observations

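Among the 12 other microglia markers, the abundant complement genes were high in Microglia IL-5 replicate 1. C1qa, a subunit of complement C1q, measured 26900 and 9273 CPM in IL-5 microglia and 10643 and 9770 CPM in PBS microglia. C1qb measured 21160 and 15330 CPM in IL-5 microglia and 17605 and 16506 CPM in PBS microglia. In both genes replicate 1 was the highest of the 4 microglia libraries, while in Tmem119, Selplg and Olfml3 it was the lowest.

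Another microglia marker had the order of libraries that Tmem119 had. Slc2a5, a fructose transporter, measured 359 and 994 CPM in IL-5 microglia and 1076 and 1253 CPM in PBS microglia. Aif1, which encodes the microglia stain target IBA1, measured 1066 and 1126 CPM in IL-5 microglia and 1145 and 1012 CPM in PBS microglia, with overlap between treatments.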
